A study of Mus musculus with 12 samples.

Results

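Heat shock chaperones were examined in regulatory T cells (Tregs) of 4 groups: 10 genes chosen by symbol, covering the cytosolic Hsp70, Hsp90 and Hsp40 families, the mitochondrial chaperonin Hspd1 and the transcription factor Hsf1. The inducible cytosolic genes were Hspa1a, Hspa1b, Hsp90aa1, Hsph1, Dnajb1 and Dnaja1, and the constitutive ones Hspa8 and Hsp90ab1. All 10 were found among the 23361 symbols listed, and all 10 passed the filter on low values that left 10868 genes for testing. RNA was sequenced in 12 mouse libraries, 3 from each of 4 groups: Wt Tregs from pancreatic islets, Lag3-deficient Tregs from islets, and Tregs of both genotypes from non-draining lymph nodes (NDL). All 4 groups came from a model of autoimmune diabetes, in which T cells attack the islets. Lag3 encodes an inhibitory surface receptor of T cells that binds MHC class II. The labels describe the material as cytoplasmic RNA. The sources used here do not give the mouse strain, the Lag3 allele and the cells that lack it, age, pooling, sorting gates or strandedness. Separate animals are not stated for the 3 libraries of a group, so p-values measure only how these samples vary, and that variation may be technical.

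Hsp70 proteins bind unfolded stretches of other proteins and release them in a cycle driven by ATP. Hsp40 (J-domain) proteins bring clients to Hsp70 and start its ATP hydrolysis, Hsph1 (Hsp110) exchanges its nucleotide, and Hsp90 acts later on partly folded clients such as kinases and steroid receptors. The constitutive members are made at all times, whereas the inducible ones are transcribed strongly when HSF1 trimerises and binds heat shock elements, inverted repeats of the letters GAA, after heat, proteotoxic stress, or, in T cells, activation.

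Levels are given in CPM, rescaled counts relative to the scaled library total, and 1 CPM was about 15.3 rescaled counts. The deposited totals lay between 15232498 and 15370098, so depth cannot be read from them, except that steps in the values point to about 5.5 M reads for Lag3-deficient islet library 2, 9.7 M for Wt NDL library 2 and 13.8 M for Lag3-deficient NDL library 1b. Libraries of a group are called 1a, 2 and 1b, since the deposited headers use the number 1 for a pair of columns in each group. The 4 libraries called 1b had more ribosomal RNA, with Rn45s at 1.26 to 1.68% of the total against 0.149 to 0.571% in the other 8, so the tests were also run without the 1b libraries. Rescaled counts of Lag3 itself were 40, 48 and 120 in Wt islets, 1, 0 and 0 in Lag3-deficient islets, 2, 5 and 6 in Wt NDL and 1, 0 and 3 in Lag3-deficient NDL, so in NDL it hardly checked the genotype labels. Foxp3, the Treg transcription factor, was at 249 to 466 CPM in islet and 302 to 678 CPM in NDL libraries. Of 9 tested Treg and T cell markers, 1 (Ctla4) was higher in islets over both genotypes (limma, adjusted p under 0.05, 0.819% of genes). These markers summed to 5861 to 9340 CPM in islet and 4676 to 5714 CPM in NDL libraries, with Ctla4 itself at 1946 to 3253 and 235 to 537 CPM.

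The 10 genes together took 1.70 to 2.43% of each islet library and 0.597 to 0.876% of each NDL library. In Wt Tregs, 4 of 10 were higher in islets at an adjusted p under 0.05 (limma, Benjamini-Hochberg over all genes tested), where 0.184% of genes were called higher. In Lag3-deficient Tregs the same 4, Hspa1a, Hspa1b, Hsp90aa1 and Dnajb1, were called, where 0.129% of genes were. Over both genotypes 7 of 10 were called higher, with Hspa8, Hsp90ab1 and Hsph1 added, where 0.819% of genes were. All 10 differences were positive in each comparison, and 0 of the 10 were called lower, where 0%, 0% and 0.147% of genes were. Hspa1a and Hspa1b passed the filter only through islet libraries, so they could hardly be called lower. The 10 were also chosen with earlier results of these data known, so these counts describe them and are no independent support. Median log2 differences of the 10 were 1.67 in Wt, 1.65 in Lag3-deficient and 1.63 over both, beside 0.05, -0.16 and -0.07 for all genes tested. Islet and NDL libraries did not overlap for 9 of 10, all but Hsf1, in either genotype or with the 6 libraries of each tissue pooled, where 7.85%, 5.38% and 1.31% of genes were higher without overlap. Tissue of origin and whatever cell isolation went with it cannot be told apart in this design, and in bulk RNA fewer cells of a type and less RNA per cell cannot be told apart either.

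**Figure D1:**
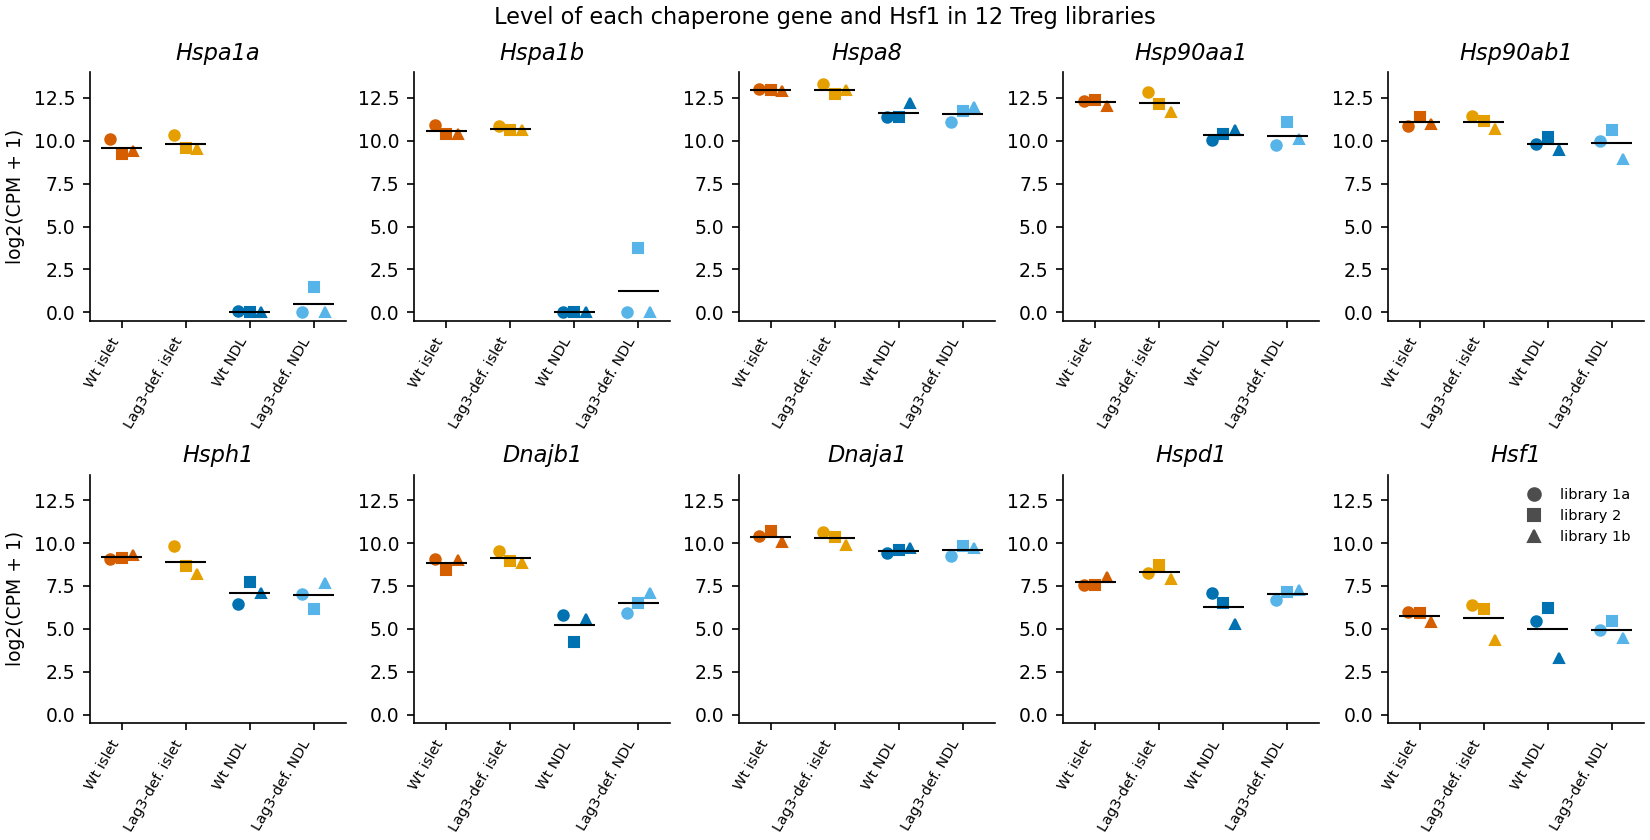
Level of the 10 genes as log2(CPM + 1) on the vertical axis in each of 12 libraries, by group, with the symbol giving the library (1a, 2 or 1b) and the bar the group mean. Hspa1a and Hspa1b lie near 0 in all NDL libraries but 1, whereas the other genes are expressed in both tissues and only Hsf1 overlaps between them.

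Hspa1a and Hspa1b, which encode the stress-inducible Hsp70, were abundant in every islet library and listed at or close to 0 in NDL. Hspa1a lies on chromosome 17, 34969190 to 34972156, and Hspa1b on chromosome 17, 34956436 to 34959238, both on the minus strand (GRCm38). Their transcripts share much sequence: 58.8% of the 50-base stretches of Hspa1a also occur in Hspa1b and 62.3% of those of Hspa1b in Hspa1a, so the split of such reads between them is uncertain. Their promoters are shown because both genes moved together, as read from RefSeq (GRCm38.p6): 250 bases before the start site, 5′ to 3′ on the minus strand, with capitals marking the letters GAANNTTC, a pair of facing heat shock repeats.
Hspa1a, chr17:34972157-34972406: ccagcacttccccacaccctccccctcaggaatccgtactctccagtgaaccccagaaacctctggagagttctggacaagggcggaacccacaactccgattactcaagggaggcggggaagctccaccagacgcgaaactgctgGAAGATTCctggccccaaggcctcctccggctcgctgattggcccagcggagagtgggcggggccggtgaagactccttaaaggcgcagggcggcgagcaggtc
Hspa1b, chr17:34959239-34959488: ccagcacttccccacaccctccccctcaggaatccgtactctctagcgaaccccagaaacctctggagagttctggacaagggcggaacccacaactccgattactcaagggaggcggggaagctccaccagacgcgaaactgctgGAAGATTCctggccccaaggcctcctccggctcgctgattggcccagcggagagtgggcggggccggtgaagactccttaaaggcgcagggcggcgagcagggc
The stretches differ at 3 of 250 bases (98.8% identity), and the match begins at position -104 in both, counted from the start site.

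Among Wt islet libraries Hspa1a stood at 1088 CPM (1a), 601 CPM (2) and 673 CPM (1b), and in Lag3-deficient islets, in the same order, at 1288, 760 and 743 CPM. In NDL it was listed at 0 in 4 of 6 libraries, at 1 rescaled count (0.0614 CPM) in Wt library 1a and at 29 (1.82 CPM) in Lag3-deficient library 2. Hspa1b was at 1948, 1366 and 1356 CPM in Wt islets and 1858, 1571 and 1556 CPM in Lag3-deficient islets. It was listed at 0 in all Wt NDL libraries and in Lag3-deficient NDL 1a and 1b, and at 196 rescaled counts (12.3 CPM) in Lag3-deficient NDL 2. The lowest islet library therefore held 601 CPM of Hspa1a and 1356 CPM of Hspa1b, far above the highest NDL library, and library 1a was the highest of each islet group for both genes. No fold is given against libraries listed at 0. On the log2(CPM + 1) scale the Wt differences were 9.54 ± 0.80 (SE, adjusted p = 1.56e-06, limma) for Hspa1a and 10.58 ± 0.84 (adjusted p = 1.19e-06) for Hspa1b. Those in Lag3-deficient Tregs were 9.31 ± 0.80 and 9.45 ± 0.84 (both adjusted p = 4.07e-06). The sizes depend on the added constant: for Hspa1a in Wt the difference was 11.47 with 0.25 CPM and 7.25 with 5 CPM. With the reads of both genes summed, it was 11.14 in Wt and 10.02 in Lag3-deficient Tregs.

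Expression at this level with near absence in NDL was rare in the table, a property looked for after the values were seen. Of 187 tested genes with at least 500 CPM in all 6 islet libraries, only Hspa1a and Hspa1b had a median NDL level below 1 CPM, and the next lowest, Rgs2, a regulator of G protein signalling, had a median of 46.2 CPM. That floor lies just below the lowest islet level of Hspa1a (601 CPM), so the count rests on the values it describes. Jun, at 106 to 263 CPM in islets with an NDL median of 0.776 CPM, was left out only by the floor. Among 10 housekeeping genes, a set that says little of genes at low levels, 0 values at 0 were found in the 12 libraries. Among all tested genes, 399 to 789 were at 0 in an NDL library and 404 to 927 in an islet library. Of the 551 genes averaging 8 or more on the log2 scale, 0 had a 0 in any library. A gene at 0 in most NDL libraries could hardly reach that average, so this count was nearly fixed in advance. Hspa1a and Hspa1b, averaging 4.98 and 5.63, lie outside that set. The second deposited table is at 0 in the same places.

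Hspa8, the constitutive cytosolic Hsp70 (chromosome 9, 40800984 to 40810087, plus strand), was the most abundant of the 10 in every group. Wt islets held 8456, 8127 and 7653 CPM (in the order 1a, 2, 1b), and Lag3-deficient islets 10086, 6707 and 7858 CPM. In NDL it stood at 2682, 2653 and 4675 CPM in Wt and 2156, 3411 and 3996 CPM in Lag3-deficient Tregs. The islet libraries were all higher than the NDL libraries, among which both 1b libraries were the highest of their group. The mean islet level was 2.42 times the NDL level in Wt and 2.58 times in Lag3-deficient Tregs. Over both genotypes the difference was 1.36 ± 0.20 (SE, adjusted p = 0.00126, limma). Within a genotype it missed the threshold, with adjusted p = 0.077 in Wt and 0.0676 in Lag3-deficient Tregs, although several other settings put it under 0.05. Without the 1b libraries the difference in Lag3-deficient Tregs was 1.64 (adjusted p = 0.0453). Of its 50-base stretches, 73.2% also occur in other annotated genes, mostly the pseudogene Gm15459, so its level depends on how the authors placed such reads.

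Inducible Hsp70 was compared with constitutive Hsp70 within each library, a ratio that does not depend on scaling as long as no constant is added. Summed Hspa1a and Hspa1b amounted to 0.359, 0.242 and 0.265 of the Hspa8 value in Wt islets (1a, 2 and 1b). In Lag3-deficient islets the ratios were 0.312, 0.348 and 0.293. The highest NDL ratio was 0.00415, in Lag3-deficient library 2, and 4 of 6 NDL libraries were at 0. The log2 ratio, with 1 CPM added to both terms because of the zeros, was 9.22 higher in islets over both genotypes. It was 7.24 higher with 5 CPM added, so its size rests on the constant and, in libraries at 0, on scaling. The exact permutation p within genotype was 0.005, the smallest that 400 assignments can give, and 0.045 after adjustment over the 9 ratio tests made. Without the 1b libraries the log2 ratio was 8.71 higher, with p = 0.0556 by exact permutation, the smallest possible. Within 1 genotype, 3 libraries against 3 cannot go below 0.1, and both comparisons gave 0.1. Hspa1a was at 0.440 to 0.693 of Hspa1b in the 6 islet libraries.

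**Figure D2:**
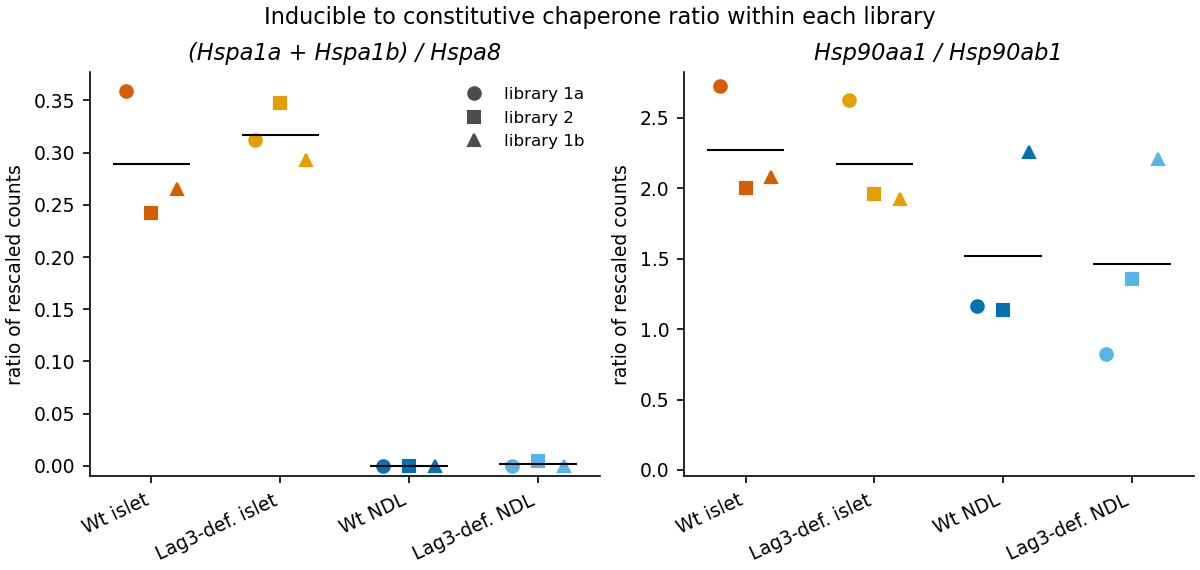
Ratio of rescaled counts within each library, for summed Hspa1a and Hspa1b to Hspa8 (left) and Hsp90aa1 to Hsp90ab1 (right), by group, with the symbol giving the library and the bar the group mean. The Hsp70 ratio separates the tissues (0.242 to 0.359 in islets, at most 0.00415 in NDL), whereas for Hsp90 the 2 NDL libraries called 1b (2.21 and 2.26) lie among the islet libraries.

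Hsp90aa1, the inducible cytosolic Hsp90 (chromosome 12, 110690605 to 110702728, minus strand), was at 5141, 5397 and 4219 CPM in Wt islets and 7364, 4462 and 3224 CPM in Lag3-deficient islets. In NDL the values were 1046, 1357 and 1566 CPM in Wt and 849, 2175 and 1081 CPM in Lag3-deficient Tregs. The ranges did not overlap, with the lowest islet library 1.48 times above the highest NDL library. Mean levels were 3.72 times higher in islets in Wt and 3.67 times in Lag3-deficient Tregs. The log2 difference was 1.91 ± 0.35 (SE) in both, with adjusted p = 0.0266 and 0.026 (limma). Those calls within a genotype are fragile: without the 1b libraries the adjusted p rose to 0.125 in Wt and 0.0624 in Lag3-deficient Tregs at larger differences (2.15 and 2.11), whereas over both genotypes it was 0.00493. As for Hspa8, 58.5% of its 50-base stretches also occur in other genes, mostly pseudogenes such as Gm12346.

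Hsp90ab1, the constitutive Hsp90 (chromosome 17, 45567775 to 45573271, minus strand), differed less. It was at 1884, 2697 and 2027 CPM in Wt islets, 2800, 2274 and 1677 CPM in Lag3-deficient islets, 899, 1194 and 693 CPM in Wt NDL and 1029, 1602 and 489 CPM in Lag3-deficient NDL. Islet and NDL libraries came close without overlapping, at 1677 against 1602 CPM. Mean levels were 2.37 and 2.16 times higher in islets. Over both genotypes the difference was 1.25 ± 0.27 (SE, adjusted p = 0.0232, limma), and within a genotype the adjusted p was 0.274 and 0.263. Without the 1b libraries the pooled difference was 1.07 (adjusted p = 0.0775).

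The ratio of Hsp90aa1 to Hsp90ab1 followed the library number as well as the tissue. It was 2.73, 2.00 and 2.08 in Wt islets (1a, 2 and 1b), 2.63, 1.96 and 1.92 in Lag3-deficient islets, 1.16, 1.14 and 2.26 in Wt NDL and 0.825, 1.36 and 2.21 in Lag3-deficient NDL. Both 1b libraries of NDL thus lay within the islet range, and the other 4 NDL libraries lay below it. The log2 ratio was 0.65 higher in islets over both genotypes (exact permutation p = 0.045, 0.203 after adjustment). Without the 1b libraries it was 1.06 higher, with every islet library above every NDL library, and p was 0.0556, the smallest that 36 assignments can give. The part of whatever set the 1b libraries apart, including their Rn45s share, in this ratio was not tested.

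Dnajb1, the inducible J-domain partner of Hsp70 (chromosome 8, 83608193 to 83612653, plus strand), showed the largest difference after the Hspa1 pair. Wt islet libraries held 533, 345 and 519 CPM and Lag3-deficient islet libraries 729, 502 and 451 CPM. NDL libraries held 55.6, 17.8 and 46.9 CPM in Wt and 58.8, 88.4 and 138 CPM in Lag3-deficient Tregs. The lowest islet library was thus above the highest NDL library, and the mean was 11.6 times higher in Wt and 5.90 times in Lag3-deficient Tregs. The log2 differences were 3.63 ± 0.50 (SE, adjusted p = 0.00112, limma) and 2.60 ± 0.50 (adjusted p = 0.0407). They did not differ from each other beyond the spread (-1.02, 95% interval -2.51 to 0.46, adjusted p = 0.998). Without the 1b libraries both narrowly missed the threshold, at 3.73 (adjusted p = 0.0502) and 3.09 (adjusted p = 0.0704). Dnajb1 shares few 50-base stretches with other genes (0.407%), so shared reads bear on it little.

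Hsph1, the Hsp110 exchange factor (chromosome 5, 149614287 to 149636376, minus strand), was at 540, 564 and 642 CPM in Wt islets and at 906, 410 and 287 CPM in Lag3-deficient islets. It was at 86.3, 209 and 138 CPM in Wt NDL and 127, 71.0 and 201 CPM in Lag3-deficient NDL. Wt islets varied by 9.17% (CV) and Lag3-deficient islets by 61.3%, with library 1a 3.16 times above 1b, yet each tissue kept its own range. Over both genotypes Hsph1 was 2.02 ± 0.35 higher in islets on the log2 scale (SE, adjusted p = 0.00587, limma). Within a genotype the differences of 2.09 and 1.95 had adjusted p of 0.112 and 0.147. Without the 1b libraries the difference in Lag3-deficient Tregs was 2.71 (adjusted p = 0.0909). None of its 50-base stretches occurs in another gene.

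Dnaja1, a farnesylated J-domain protein (chromosome 4, 40722150 to 40737149, plus strand), had the smallest difference among the cytosolic chaperones. Its level was 1371, 1638 and 1051 CPM in Wt islets, 1616, 1300 and 953 CPM in Lag3-deficient islets, 673, 774 and 823 CPM in Wt NDL and 610, 927 and 832 CPM in Lag3-deficient NDL. Ranges were separate but adjacent, at 953 CPM for the lowest islet and 927 CPM for the highest NDL library. The difference over both genotypes was 0.76 ± 0.22 (SE, adjusted p = 0.13, limma).

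Hspd1, the mitochondrial Hsp60 (chromosome 1, 55077835 to 55088243, minus strand), was at 187, 184 and 263 CPM in Wt islets and 299, 418 and 241 CPM in Lag3-deficient islets. It was at 133, 90.6 and 37.1 CPM in Wt NDL and 100, 140 and 153 CPM in Lag3-deficient NDL. All islet libraries were above all NDL libraries, but the spread in Wt NDL was wide (CV 55.3%). The difference over both genotypes was 1.35 ± 0.35 (SE, adjusted p = 0.0791, limma). In Wt it was 1.43, and 0.76 (adjusted p = 0.846) without the 1b libraries. Hspe1, which encodes its partner Hsp10 and lies head to head with it on the other strand, is described with the mitochondrial list.

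Hsf1, the transcription factor that drives the inducible members (chromosome 15, 76477422 to 76501913, plus strand), was low and overlapped between all groups. It was at 62.8, 59.3 and 41.0 CPM in Wt islets, 84.0, 70.1 and 19.5 CPM in Lag3-deficient islets, 43.6, 71.9 and 8.80 CPM in Wt NDL and 29.4, 42.8 and 21.3 CPM in Lag3-deficient NDL. In all 4 groups the 1b library was the lowest. The difference over both genotypes was 0.73 (95% interval -0.52 to 1.99, adjusted p = 0.689, limma). In Wt it was 0.78 (adjusted p = 0.923), and it became 0.13 without the 1b libraries and -0.066 without Wt NDL library 1b alone. RNA level says nothing of the trimer formation and modification that control the protein.

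**Figure D3:**
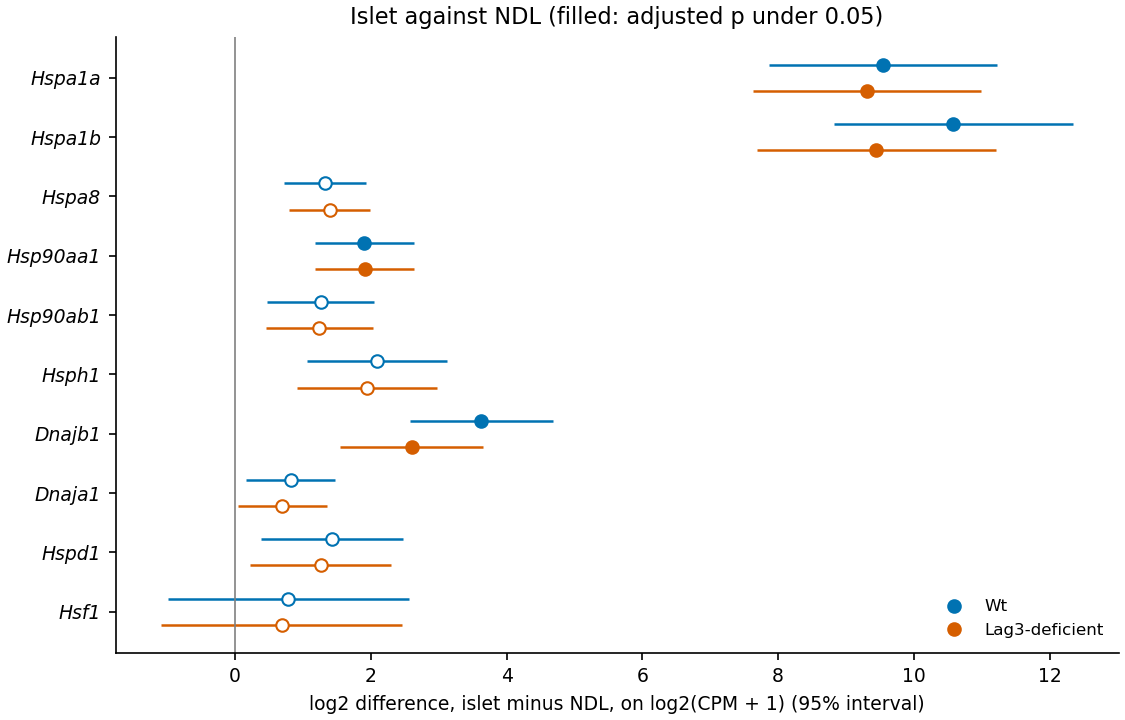
Log2 difference between islet and NDL (islet minus NDL, on log2(CPM + 1)) with its 95% interval for the 10 genes, in Wt and Lag3-deficient Tregs, with filled points for an adjusted p under 0.05. Hspa1a and Hspa1b lie between 9.31 and 10.58, Dnajb1 at 3.63 and 2.60, and the other genes below 2.1, and the interval includes 0 only for Hsf1.

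Within the 1b libraries alone, 1 per group and so without a test (a comparison added after the data were seen), 10 of 10 genes were higher in Wt islets than in Wt NDL and 9 of 10 in Lag3-deficient Tregs, all but Hsf1. Among those at above 0 in both tissues, the ratio in Wt ran from 1.28 for Dnaja1 to 11.05 for Dnajb1. In Lag3-deficient Tregs it ran from 0.917 for Hsf1 to 3.43 for Hsp90ab1.

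Per kilobase of transcript (GENCODE principal transcript, GRCm38), the order of mean islet levels was Hspa8, Hsp90aa1, Hsp90ab1, Hspa1b, Dnaja1, Hspa1a, Dnajb1, Hsph1, Hspd1 and Hsf1. Hspa8 led with 3403 ± 467 CPM per kilobase (SD, n = 6), followed by Hsp90aa1 at 1514 ± 427 and Hsp90ab1 at 884 ± 179, and Hsf1 was lowest at 26.9 ± 10.9. Hspa1b, at 574 ± 88.0, stood above Dnaja1 by more than their SDs. Spans of mean ± SD overlapped between neighbours from Dnaja1 (391 ± 83.7) through Hspa1a (289 ± 90.5), Dnajb1 (171 ± 42.0) and Hsph1 (147 ± 55.7) to Hspd1 (109 ± 35.9). Within each islet library, however, Dnaja1 stood above Hspa1a and Hspa1a above Dnajb1. Dnajb1 and Hsph1, and Hsph1 and Hspd1, changed order between islet libraries. In NDL the order was Hspa8 (1363 ± 396), Hsp90aa1 (410 ± 146), Hsp90ab1 (391 ± 155), Dnaja1 (229 ± 34.1), Hspd1, Hsph1, Dnajb1, Hsf1 (17.4 ± 10.5), Hspa1b and Hspa1a. There the Hsp90 pair overlapped, as did Hspd1 (45.0 ± 17.5), Hsph1 (36.5 ± 15.0), Dnajb1 (22.5 ± 13.7) and Hsf1 as neighbours. By mean level the Hspa1 genes thus stood last in NDL and above Dnajb1, Hsph1, Hspd1 and Hsf1 in islets.

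Heat shock letters were searched in the RefSeq promoter windows, from 250 bases before to 50 after each start, which were at hand for 6 of 10 genes: Hspa1a, Hspa1b, Hsph1, Dnajb1, Dnaja1 and Hspd1. The letters were GAANNTTC and TTCNNGAA, each its own reverse complement, and GAANNTTCNNGAA (3 units, which contains both shorter forms) on both strands. They occur in the windows of 9.04%, 9.60% and 0.662% of 27025 genes. Besides the Hspa1 pair, matches were found for Hsph1, Hspd1 and Dnaja1, shown here as 30 bases on the gene's strand with the match, or overlapping matches joined, in capitals.
Hsph1, upstream, chr5:149636351-149636380: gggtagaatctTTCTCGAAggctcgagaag
Hsph1, downstream, chr5:149636280-149636309: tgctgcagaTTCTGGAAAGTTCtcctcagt
Hspd1, chr1:55088053-55088082: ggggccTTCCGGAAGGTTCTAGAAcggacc
Dnaja1, chr4:40722333-40722362: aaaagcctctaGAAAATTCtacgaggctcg
Hspd1 has 4 adjoining units, from overlapping matches, the downstream Hsph1 match has 3, and the upstream Hsph1 match and that of Dnaja1 have 2. The Hsph1 matches begin at positions -33 and 37 from one RefSeq start, or -54 and 16 from the other, so that one lies before these starts and one after them. Both lie inside the GENCODE span of Hsph1 given above, which begins further upstream, at 149636376. The Hspd1 match begins at position -144 from an inner start and lies downstream of the outer one. The Dnaja1 match begins at position -124 from its first RefSeq start, and the windows of its later starts held no match. It also lies inside the GENCODE span of Dnaja1 given above, which begins at 40722150. Dnajb1, with the third-largest difference, had no match in its windows. A match describes letters, not binding, and these windows are short.

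The genes most like the chaperones over the libraries included early response genes. The 5 genes whose log2 levels over the 12 libraries were most like those of summed Hspa1a and Hspa1b, among 5597 tested genes averaging 4 or more on that scale, were Jun (Pearson r = 0.973), Fos (0.964), Ccr2 (0.961), Ctla4 (0.956) and Gm14005 (0.955). For Hspa8 they were Rgs2 (0.974), Lgals1 (0.973), Top2a (0.962), Nfkbia (0.949) and Ccr2 (0.948). These points share the split into tissues, and the values only describe it. Jun and Fos encode subunits of AP-1, Ccr2 a chemokine receptor and Ctla4 an inhibitory receptor of Tregs. Jun was at 106 to 263 CPM in islets and 0 to 2.77 CPM in 5 NDL libraries, and at 23.0 CPM in Lag3-deficient NDL 2, the library that also held Hspa1b. Fos was not raised there, at 2.77 CPM against 4.74 and 5.89 CPM in Lag3-deficient NDL 1a and 1b. That library also had the highest sum of myeloid markers in NDL, 40.0 CPM.

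Immediate early genes are made within minutes of receptor stimulation or stress. Their list had a median log2 difference of 2.24 over both genotypes (all genes -0.07), and 10 of 19 tested had an unadjusted p under 0.05 (limma). After adjustment 8 of 19 rose in islets and 0 fell, where 0.819% and 0.147% of genes did. They include Fos (6.67, 413 against 3.50 CPM), Jun (5.94), Ppp1r15a (4.54), a phosphatase subunit of the stress response, and Dusp1 (3.83), a MAP kinase phosphatase. The list summed to 2468 to 3857 CPM in islets and 891 to 1088 CPM in NDL. Markers of pancreatic exocrine cells were also higher in islets, 11 of 19 tested, where 0.819% of genes were. They summed to 39.7 to 3977 CPM against at most 4.97 CPM, with 12 of 24 listed at 0 in all NDL libraries. At such NDL levels the tested exocrine genes passed the filter through islet libraries, so their direction was nearly fixed in advance. The islet library with the most exocrine signal, Wt 1a (3977 CPM), held 3036 CPM of summed Hspa1a and Hspa1b, and the one with the least, Lag3-deficient 2 (39.7 CPM), held 2331 CPM. The highest sum of the pair, 3145 CPM, was in Lag3-deficient islet 1a, with 674 CPM of exocrine signal. Endocrine markers summed to 8.29 to 243 CPM in islets and at most 1.26 in NDL (0 of 2 tested called by limma, 2 at an unadjusted p under 0.05). The filter bore on the direction of the endocrine markers in the same way. Myeloid markers summed to 66.5 to 287 against 0.429 to 40.0 CPM (1 of 5 tested called, Cybb), and CD8 and NK markers to 75.7 to 427 against 19.4 to 111 CPM (1 of 4, Nkg7). B cell markers (0 of 8 called by limma, 1 at an unadjusted p under 0.05) and stromal markers (0 of 2, and 0 unadjusted) overlapped between tissues. The part of the early genes and of these other cells in the chaperone levels was not tested.

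Of the other chaperone lists, compared over both genotypes, only the mitochondrial one held a called gene. Among the Hsp70 and Hsp40 partners, 0 of 23 tested passed in either direction (limma, where 0.966% of genes did), 4 had an unadjusted p under 0.05, 12 had a positive difference and the median was 0.17. The nearest were Dnajb4, a further Hsp40, at 58.9 ± 37.1 CPM in islets and 7.92 ± 8.22 CPM in NDL (SD, n = 6; log2 difference 3.19, adjusted p = 0.0917), and Bag3, an Hsp70 exchange factor, at 36.5 ± 15.5 and 5.15 ± 5.16 CPM (3.12, adjusted p = 0.142). Hspa4, related to Hsph1, differed by 1.11 (adjusted p = 0.206) and Dnajc5 by -1.12 (adjusted p = 0.262). Of 19 Hsp90 cochaperones 0 passed (limma, 1 at an unadjusted p under 0.05, median -0.03), and Ptges3, the p23 cochaperone, had the smallest p with a difference of 0.56 (adjusted p = 0.391). Of 13 CCT chaperonin and prefoldin genes 0 passed (limma, 0 at an unadjusted p under 0.05, median 0.15), and Cct7 differed by 0.45 (adjusted p = 0.535).

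Of 12 mitochondrial chaperones and proteases 1 rose, Hspe1, the Hsp10 partner of Hspd1, at 810 ± 240 CPM in islets and 332 ± 173 CPM in NDL (log2 difference 1.38 ± 0.31, adjusted p = 0.0325, limma). The list median was 0.26, and Grpel1 differed by 1.36 (adjusted p = 0.539). Only 2 of 9 small heat shock protein genes could be tested. Hspb1 (Hsp27) was at 26.4 ± 21.3 CPM in islets and 0.576 ± 0.664 CPM in NDL, and did not pass (3.45, adjusted p = 0.0863). In islets Hspb1 ranged from 0.282 CPM in Wt library 2 to 56.1 CPM in Wt library 1a. Of the HSF family, 2 of 6 were testable and 0 passed (limma, 0 at an unadjusted p under 0.05), with Hsf2 at 1.17 (adjusted p = 0.625) and Hsbp1, an HSF1 binding protein, at -0.03 (adjusted p = 0.986).

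**Figure D4:**
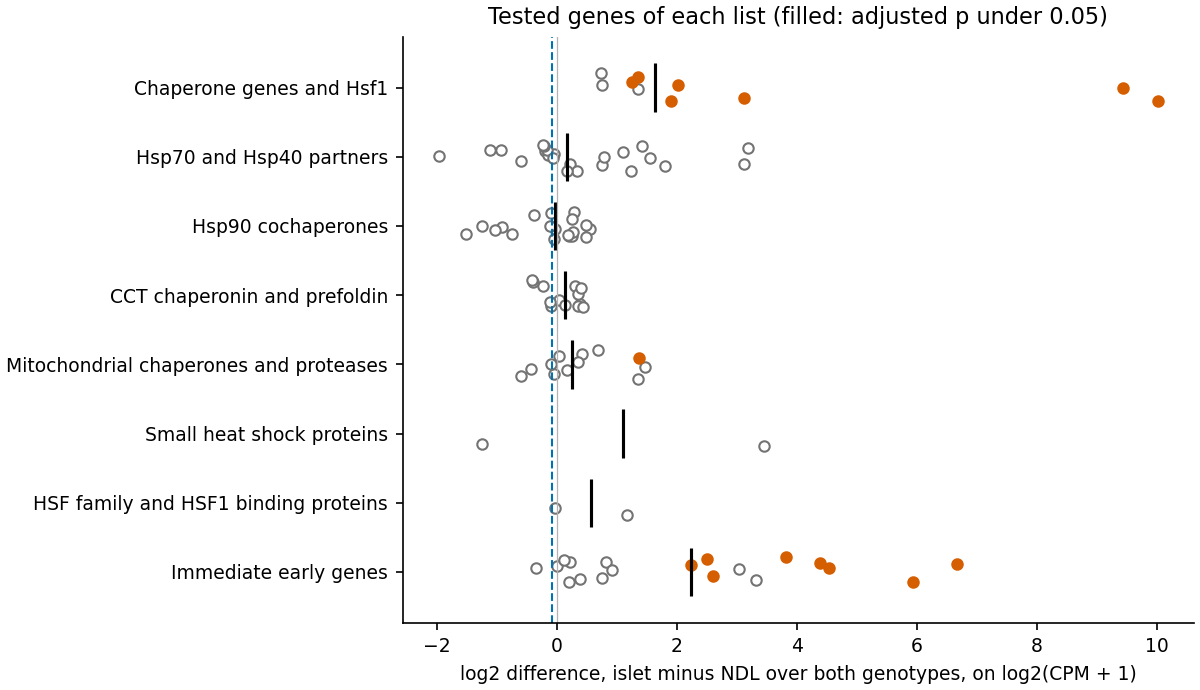
Log2 difference between islet and NDL over both genotypes (horizontal axis, on log2(CPM + 1)) for each tested gene of 8 lists, with the list median as a black bar, all genes' median as a dashed line, filled points for an adjusted p under 0.05, and vertical scatter for legibility only. Filled points are seen among the 10 genes (7), the mitochondrial list (1) and the immediate early genes (8), and none among the other 5 lists.

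Lag3 deficiency was compared with Wt within each tissue. No gene passed in islets, in NDL or for the difference between them: 0 of 10868 genes were called in each (0%), and 0 of the 10. At an unadjusted p under 0.05 (limma), 0, 1 and 0 of the 10 were found, where 5.62%, 2.79% and 4.05% of genes were. Median differences of the 10 were 0.01 in islets and 0.04 in NDL, beside -0.18 and 0.00 for all genes. The islet groups overlapped for all 10 genes, where 3.46% and 5.86% of genes were higher or lower without overlap.

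In islets the difference, Lag3-deficient minus Wt, was bounded most closely for Hspa8 (0.01, 95% interval -0.60 to 0.61), Dnaja1 (-0.08, -0.73 to 0.57), Hsp90aa1 (-0.05, -0.78 to 0.68) and Hsp90ab1 (0.02, -0.77 to 0.80). For Hspa1a it was 0.24 (-1.44 to 1.92), for Hspa1b 0.11 (-1.65 to 1.87), for Hsf1 -0.13 (-1.90 to 1.65) and for Hsph1 -0.29 (-1.32 to 0.74). Differences of 1 log2 unit in either direction thus lay within the intervals of Hspa1a, Hspa1b and Hsf1, and a fall of that size within that of Hsph1. Hspd1 had the largest value, 0.58 (-0.46 to 1.62), with means of 319 ± 90.2 CPM in Lag3-deficient and 211 ± 44.7 CPM in Wt islets (SD, n = 3). Neither ratio passed a test: the log2 ratio of inducible to constitutive Hsp70 differed by 0.15 and that of Hsp90 by -0.07 (exact permutation p = 0.5 for each, where 0.1 is the smallest possible).

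In NDL, Dnajb1 was the exception among the 10. Its Lag3-deficient libraries (58.8, 88.4 and 138 CPM) were all above the Wt libraries (55.6, 17.8 and 46.9 CPM), by as little as 58.8 against 55.6 CPM. The log2 difference was 1.29 (95% interval 0.24 to 2.34, unadjusted p = 0.019, adjusted p = 1, limma), and 4.27% of genes were higher without overlap in that comparison. Hspd1 differed by 0.74 (-0.30 to 1.79). Hspa1b differed by 1.25 (-0.52 to 3.01) through 1 library, and Lag3-deficient NDL 1a and 1b were listed at 0 as in Wt. The Hsp90 log2 ratio differed by -0.09 (exact permutation p = 0.9).

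**Figure D5:**
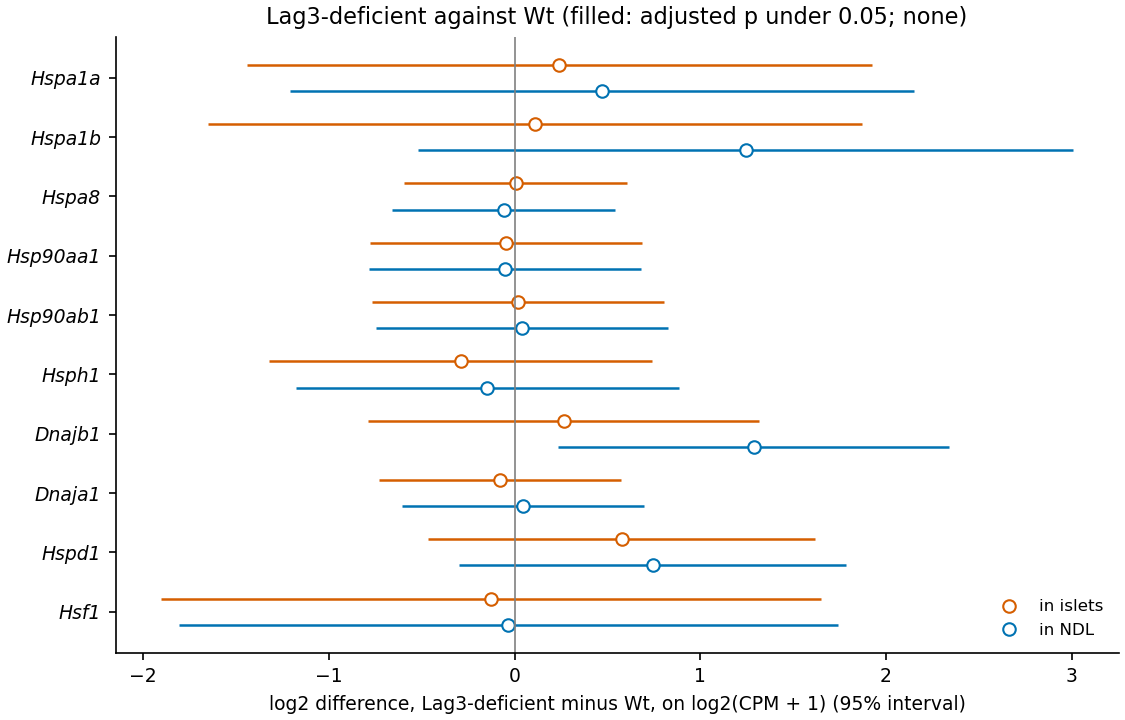
Log2 difference between genotypes (Lag3-deficient minus Wt, on log2(CPM + 1)) with its 95% interval for the 10 genes, in islets and in NDL. All points are open, since no adjusted p was under 0.05, and only the NDL interval of Dnajb1 (0.24 to 2.34) lies wholly on one side of 0.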

How the data were processed

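The labels give genotype, tissue and replicate number for 12 samples. The deposited headers number the columns of each group 1, 2 and 1, so columns were assigned by group. The first deposited table lists 23361 symbols as a signal, whole numbers that the authors rescaled to nearly one total, not raw counts. The second deposited table holds 10317 genes as a signal with a near-common distribution and served as an alternative. TopHat2, DESeq2 and mm10 are named, without versions or roles, per the submitters' processing notes, and how reads with several matches were counted is not given in the sources used here.

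Values were scaled by trimmed means (TMM, trimming 30% of ratios and 5% of levels) to CPM. Genes reaching 10 rescaled counts in 3 or more libraries were fitted as log2(CPM + 1) with limma 3.58.1 in R 4.3.3, with a mean-variance trend, 1 model of the 4 groups and no covariate. That scale understates changes of low genes. P-values were adjusted by Benjamini-Hochberg over 10868 genes with a threshold of 0.05. Ratios were tested by exact two-sided permutation over libraries, and intervals are 95%. On simulated data, 79% of changes of 2 log2 units and 99% of 4 were recovered in the Wt tissue comparison (10802 genes, 100 changed at each size, 5.48% false calls). Recovery was not obtained separately for genes of lower average level. Hspa1a, Hspa1b, Hsf1, Hspd1 and Dnajb1, averaging 4.98 to 7.41 on the log2 scale, are such genes. The percentages therefore do not give the power for them. Scaling hides depth, so no counting interval is given.

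The genes named were the 10, up to 4 per list with the smallest p, the 5 most correlated with the Hspa1 pair and with Hspa8, and Lag3. The 10 genes and the lists were chosen with earlier results of these data known. Hspa1a and Hspa1b enter as separate rows and, as an alternative, summed. The numbers 1a, 2 and 1b were not used as pairs.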

Additional observations from a re-analysis of the deposited data

How the results depend on the processing

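In the 3 tissue comparisons, Hspa1a and Hspa1b stayed past the threshold under every alternative run: other scalings, constants and filters, voom weights, the second table, the pair summed, and without single libraries, the 1b libraries or the scaled-up libraries (Lag3-deficient islet 2, Wt NDL 2 and Lag3-deficient NDL 1b, whose deposited values exceed their reads). Each of the other 8 genes kept a positive tissue difference throughout, except Hsf1 in Wt (-0.066 to 1.38 without 1 library, the lowest without Wt NDL 1b). The 4 genes called in Wt became 2 without the 1b libraries, and the 4 in Lag3-deficient Tregs became 2 with no filter. Over both genotypes, Hsp90ab1 and Hsph1 missed the threshold with no filter (adjusted p = 0.17 and 0.0512, limma). Hsp90ab1 also missed it with the second table (adjusted p = 0.0632, limma) and, as given above, without the 1b libraries. Leaving out 1 library gave 3 to 5 in Wt, 2 to 5 in Lag3-deficient and 6 to 7 over both. The value of 2 in Lag3-deficient Tregs came without Lag3-deficient islet 1a or 2, Wt islet 1a or 2, or Lag3-deficient NDL 1a. Genes called in Wt numbered 20, and 11 with no filter, 53 with voom weights, 8 without the 1b libraries and 9 to 29 without 1 library. In Lag3-deficient Tregs 14 became 26 with RLE size factors, 7 with no filter, 31 with the second table, 24 without the 1b libraries and 9 to 35 without 1 library. Over both, 105 became 46 with no filter, 45 without the 1b libraries and 67 to 109 without 1 library. Genotype in islets gave 0 to 8 called genes without 1 library, with 8 when Lag3-deficient islet 1b was left out, and none of the 10. RLE moved the median of all genes in Lag3-deficient tissue from -0.16 to -0.03. Apart from fewer samples or more genes tested, the cause of these shifts was not tested.

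By exact permutation, the pooled log2 Hsp70 ratio was 7.24 with 5 CPM added, a setting chosen after seeing the data (p = 0.005), 8.71 (p = 0.0556, the smallest possible) without the 1b libraries and 8.80 to 9.84 without 1 library. The pooled log2 Hsp90 ratio was 1.06 without the 1b libraries (exact permutation p = 0.0556) and 0.48 to 0.83 without 1 library, where 10 of 12 omissions brought p above 0.05. Between genotypes the Hsp90 ratio changed sign, with -0.21 to 0.075 in islets and -0.44 to 0.27 in NDL without 1 library, and 0.018 in NDL with the second table. Genotype differences of single genes in islets, none past the threshold, changed sign too. Hspa8 was -0.0064 with voom weights and -0.13 to 0.16 without 1 library. Hsp90aa1 was 0.14 with RLE, 0.17 without the 1b libraries, 0.016 without the scaled-up libraries and -0.34 to 0.23 without 1 library. Hsph1 was 0.19 without the 1b libraries and -0.73 to 0.071 without 1 library. The repeated numbers were not treated as pairing the libraries, since deviations of same-numbered libraries correlated at only -0.06 to 0.19, but 9 of 12 libraries correlated best with one of their own number, a hint of pairing from the data and not the design. With a replicate block 4, 5 and 7 of the 10 were called in Wt, Lag3-deficient and both, among 15, 15 and 104 genes, and the gene added was Hspa8 in Lag3-deficient Tregs (adjusted p = 0.0469).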
